A study of Rattus norvegicus with 21 samples.

Results

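Microglia sorted from the spinal cord of rats given the antibiotic neomycin were compared with microglia from rats given buffer. The comparison takes the 8 libraries titled as microglia and treated with NEO or PBS, 4 per treatment and each numbered 1, 2, 3 and 5, out of 21 libraries in the series. All came from wild type rats of the inbred strain LEW/Crl, 6 to 8 weeks old, that were dosed into the trachea for 7 days. NEO is neomycin and PBS is phosphate-buffered saline, the control. The microglia were CD45low CD11b+ cells sorted by flow cytometry after myelin had been removed from the homogenised cord. A further 4 microglia libraries from vancomycin-treated rats (VANCO, same numbers) entered the statistical model to help estimate the spread, and 9 libraries of myelin-depleted total cord were used for reference. The labels do not say whether a library held 1 rat or a pool, or what the numbers stand for, so p-values measure only the spread between these libraries.

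Microglia are the resident macrophages of the central nervous system. They survey the tissue, clear debris and dying cells, and respond to bacterial products and cytokines through pattern recognition and interferon receptors. Signals from bacteria of the body's surfaces are known to influence their state. Neomycin is an aminoglycoside that acts on many Gram-negative bacteria by disturbing their protein synthesis, and vancomycin is a glycopeptide that blocks cell wall synthesis in Gram-positive bacteria. The series asks how airway exposure to such drugs affects gene expression in the cord.

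The files give Ensembl gene IDs, and 0 of the 32883 IDs matched a symbol in the gene table used here. Genes therefore appear by ID, and only 4 are printed: of the genes called, the 2 higher and the 2 lower with the smallest p. No gene group, pathway or marker list could be described, no defining marker of microglia could be looked up, and no promoter could be matched.

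Total counts ranged from 9020480 to 22435887 in the 8 libraries, and number 2 had the lowest total of both treatments. Whole-cord RNA was gauged from 1742 cord-enriched genes, those at least 64-fold higher in total cord than in microglia of PBS rats, which held 29.7 to 34.1% of counts in the cord libraries. Their share was 0.0425, 0.113 and 0.106% in NEO 1, 3 and 5 and 2.66% (95% Wilson interval 2.65 to 2.67%, counting error only) in NEO 2. In PBS it was 0.101, 0.132 and 0.109% in numbers 1, 3 and 5 and 0.337% in number 2. The share in NEO 2 was the highest of the 12 sorted libraries. Number 2 also stood apart in both treatments in the share taken by its 10 most abundant genes, 15.8% in NEO and 15.9% in PBS against 9.55 to 10.6% in the other 6 libraries. A different departure was seen in PBS 1, 2 and 3. In these libraries 30 genes summed to 470, 509 and 299 CPM (counts scaled to a common library total), against 5.17 CPM in PBS 5 and 7.25, 16.0 and 8.80 CPM in NEO 1, 3 and 5. NEO 2 had 233 CPM. These genes were picked for that pattern after the data had been seen, and 1 of them is among the called genes below. Results are given with and without number 2 for these reasons.

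**Figure D1:**
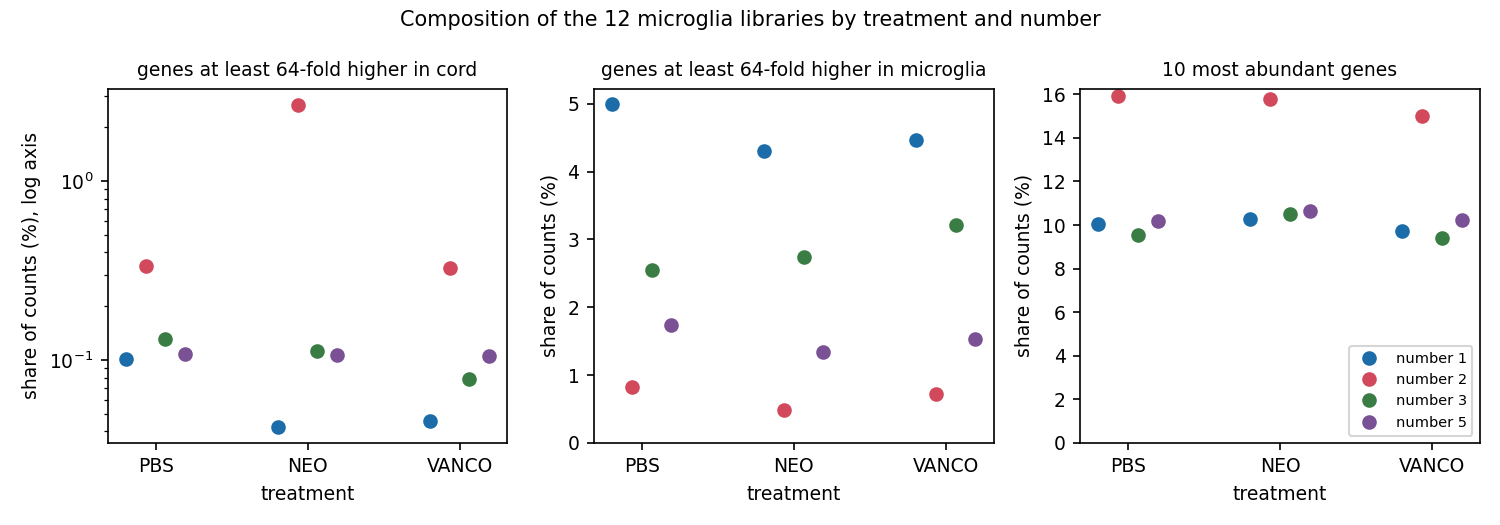
Composition of the 12 microglia libraries by treatment (x axis), coloured by replicate number. The panels show the percent of counts from genes at least 64-fold higher in cord (log axis), from genes at least 64-fold higher in microglia, and from each library's 10 most abundant genes. NEO 2 stands at 2.66% in the first panel, and the numbers stand in the same order in every treatment in the second.

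Libraries of the same number resembled each other across treatments. Over the 12570 genes tested, the median share of a gene's variation in log2 CPM among the 8 libraries that went with the number was 64%, and the median share that went with the treatment was 8.20%. Without number 2 these shares were 57.7% and 10.9%. The number has 3 degrees of freedom among the 8 libraries and the treatment 1, so these shares are a description and do not rank number and treatment. Same-numbered NEO and PBS libraries deviated together from their group means, with a correlation across genes of 0.47 to 0.69 in the 4 pairs. With the vancomycin library of the same number, NEO and PBS of numbers 1, 2 and 3 had 0.60 to 0.79. In number 5 it was 0.24 for NEO and 0.36 for PBS, while NEO 1 and PBS 5, of different numbers, had 0.34. The comparison below pairs equal numbers, as it was defined to do. Pairing lowered the common biological coefficient of variation from 33.3% to 13.7%.

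In the paired edgeR quasi-likelihood model 94 of 12570 genes (0.748%) passed an adjusted p of 0.05 (Benjamini-Hochberg). Of these, 67 (0.533% of genes tested) were higher after neomycin and 27 (0.215%) were lower. With these included, 1706 genes (13.6%) had an unadjusted p under 0.05, 930 of them higher and 776 lower. The raised genes differed by a median of 1.75-fold, from 0.36 to 3.21 on the log2 scale, and 27 of them reached 2-fold. The lowered genes fell by a median of 0.68 on the log2 scale, and 4 reached 2-fold. Across all genes tested the median log2 fold change was -0.00, with quartiles of -0.14 and 0.15. The balance of directions depended on the libraries and the model. Without NEO 2 edgeR called 143 genes higher and 157 lower, and with the cord-enriched share as a covariate 325 and 333. DESeq2 with the same pairing called 168 genes higher and 146 lower, and these included all 67 and 27 of edgeR. Without pairing, edgeR called 5 genes (0.0398%), 4 higher (0.0318%) and 1 lower (0.00796%), all among the 94. In that unpaired fit 655 of the 12570 genes had an unadjusted p under 0.05, with 59 of the 67 and 18 of the 27 among them. The 67 and 27 were picked on the same libraries, so their unpaired p-values add no evidence for them. In sorted cells as in tissue, a lower value can stem from fewer cells of a kind or from less RNA in each, and these cannot be told apart.

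**Figure D2:**
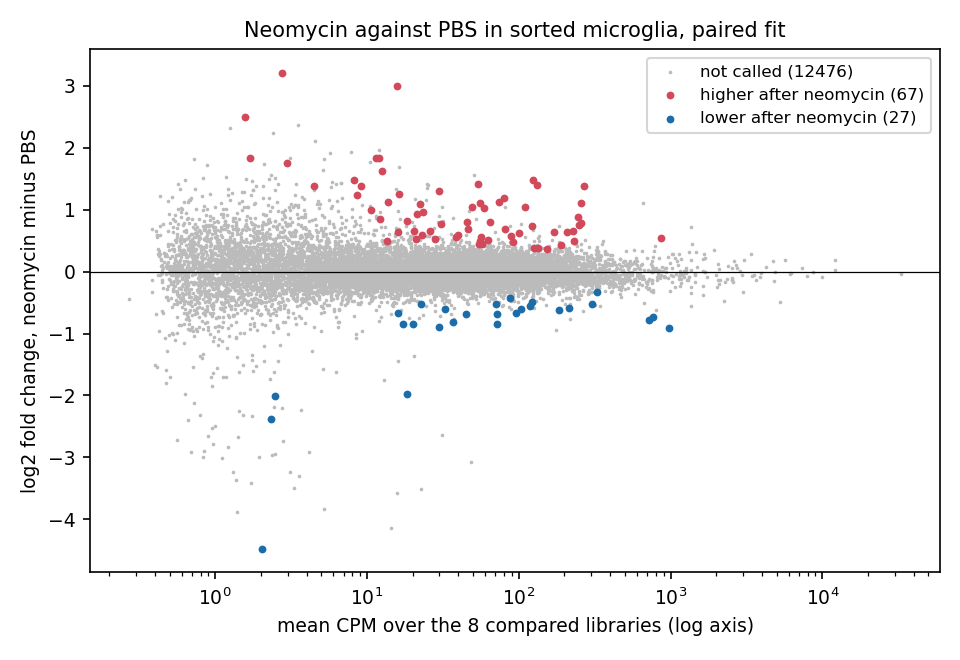
Log2 fold change of neomycin over PBS (y axis) against mean CPM over the 8 compared libraries (x axis, log scale) for the 12570 genes tested. Grey points were not called, 67 red points were higher and 27 blue points lower. The called genes spread over the range of levels, and most of the strongest falls, at 2 log2 units or more below 0, were not called.

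The called genes were mostly of middle to high level. Their mean level over the 8 libraries had a median of 49.5 CPM for raised and 71.5 CPM for lowered genes, against 24.2 CPM for all genes tested. Of the 3143 genes of lowest level 0.255% were called, and of the 3143 of highest level 1.24%. The precision differed in the same order, with a median standard error of the log2 fold change of 0.33 among the former and 0.09 among the latter. Among the 500 most abundant genes, 1 was raised and 5 were lowered, where 0.533% and 0.215% of all genes tested were. The 67 raised genes together rose from 4317 to 7190 CPM, and the 27 lowered genes together went from 5537 to 3419 CPM (sums of group means).

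Few of the strongest falls passed the test. Of 41 tested genes with a log2 fold change of -2 or lower, 3 were called. The 3 had mean levels of 3.81 to 4.09 CPM in PBS and 0.221 to 0.866 CPM in NEO. Of the 41 genes, 25 belonged to the 30 that were high in PBS 1, 2 and 3 and near 0 in PBS 5, among them 1 of the 3 called. The 30 were also picked for low levels in NEO 1, 3 and 5, so strong falls among them follow from that choice. A second of the 3 had 4.91, 6.21 and 3.60 CPM in PBS 1, 2 and 3 and 0.535 CPM in PBS 5, just short of the 8-fold gap that defined the 30. With the gene of the 30 left out, 26 lowered genes remained, 3 of them at 2-fold or more. Of 7 tested genes with a log2 fold change of 2 or more, 3 were called.

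The changes ran the same way in nearly every pair. All 67 raised genes had a higher CPM in NEO than in PBS in 4 of 4 pairs, as did 9.37% of all genes tested. Of the 27 lowered genes 26 were lower in 4 of 4 pairs and 1 in 3 of 4, where 15.1% of all genes were lower in 4 of 4. These counts come from the values that gave the calls and add no evidence for them. The median log2 difference of the raised genes was 0.70, 0.93, 0.86 and 0.78 in pairs 1, 2, 3 and 5. That of the lowered genes was -0.72, -0.90, -0.61 and -0.54. The 4 NEO libraries lay above all 4 PBS libraries for 42 of the 67 (1.75% of all genes), and below all 4 for 9 of the 27 (0.883% of all genes). For the other called genes the groups overlapped.

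**Figure D3:**
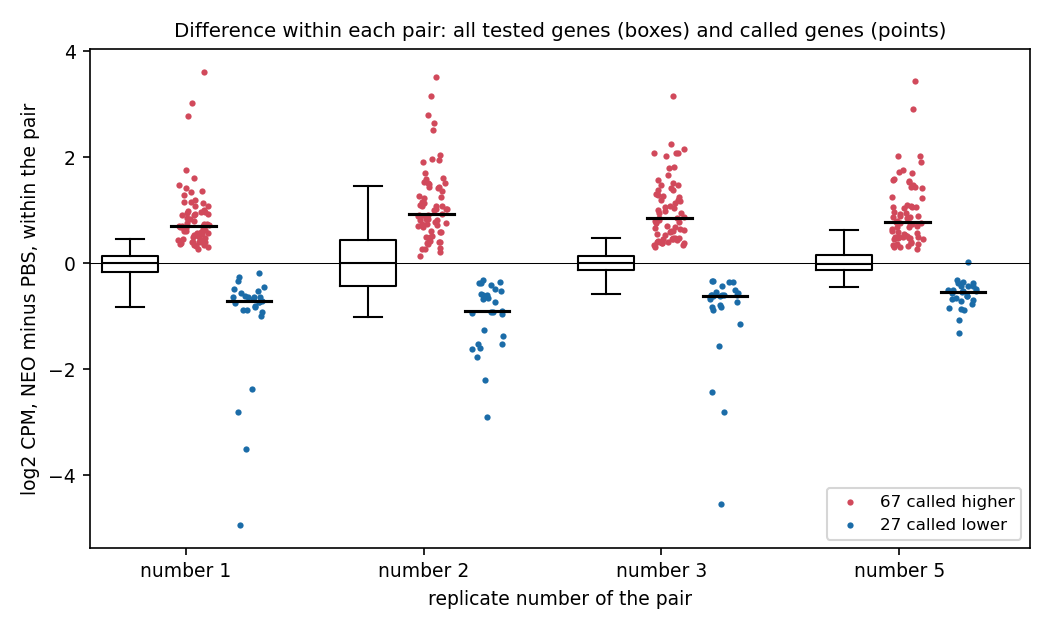
Log2 CPM in NEO minus that in PBS (y axis) within each of the 4 pairs (x axis). Boxes show all 12570 genes (median, quartiles, whiskers from the 5th to the 95th percentile), red points the 67 raised genes and blue points the 27 lowered, with black bars at their medians. The box of pair 2 is the widest, and the red medians lie between 0.70 and 0.93 in the 4 pairs.

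ENSRNOG00000019536 had the smallest p among the raised genes. Its level was 28.4, 23.3, 38.9 and 29.9 CPM in NEO 1, 2, 3 and 5 and 15.4, 9.64, 17.7 and 14.1 CPM in PBS 1, 2, 3 and 5. Every neomycin library lay above every PBS library, and number 3 was the highest and number 2 the lowest in both treatments. The NEO mean was 30.1 ± 6.49 CPM and the PBS mean 14.2 ± 3.40 CPM (SD, n = 4). Within pairs it rose 2.14-fold, by 1.10 on the log2 scale (SE 0.08, adjusted p in edgeR 0.000592).

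ENSRNOG00000001963 rose slightly more. Its level was 43.5, 50.1, 34.3 and 41.4 CPM in NEO 1, 2, 3 and 5 against 23.5, 18.1, 13.5 and 15.2 CPM in PBS. The groups did not overlap, and the highest PBS library, number 1, stayed below the lowest NEO library, number 3. The means were 42.3 ± 6.47 and 17.6 ± 4.39 CPM (SD, n = 4), a 2.46-fold rise within pairs (log2 1.30, SE 0.10, adjusted p in edgeR 0.000592). Unlike the first gene, it was highest after neomycin in number 2, the library with the most cord RNA. It was 1.54-fold higher in total cord than in microglia of vancomycin rats, and its fold change was close to the same without number 2 (log2 1.26, SE 0.11, edgeR adjusted p 0.000115).

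ENSRNOG00000013963 had the smallest p among the lowered genes and was among the most abundant genes of these cells, at rank 151 of 12570. Its level was 479, 390, 580 and 648 CPM in NEO 1, 2, 3 and 5 against 782, 711, 1057 and 1097 CPM in PBS. The highest NEO library, number 5, lay below the lowest PBS library, number 2. The means were 524 ± 113 and 912 ± 194 CPM (SD, n = 4), and the change within pairs was -0.79 on the log2 scale (SE 0.08, adjusted p in edgeR 0.00220). Each NEO library held 1.63 to 1.82 times less than the PBS library of its number.

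ENSRNOG00000017869, at rank 135 by level, was also lowered. It had 610, 445, 617 and 623 CPM in NEO 1, 2, 3 and 5 against 1049, 818, 988 and 976 CPM in PBS. Numbers 1, 3 and 5 were close to each other within each treatment, number 2 was the lowest of both, and the groups did not overlap. Within pairs the change was -0.73 on the log2 scale (SE 0.08, adjusted p in edgeR 0.00331). This gene was 32.6-fold higher in microglia than in total cord of vancomycin rats, and ENSRNOG00000013963 was 7.93-fold higher. Cord RNA in a microglia library lowers the share of such genes, and its part in the low value of NEO 2 was not tested. Without number 2 the log2 fold changes were -0.68 (SE 0.05, edgeR adjusted p 6.76e-05) for ENSRNOG00000017869 and -0.75 (SE 0.05, edgeR adjusted p 6.73e-05) for ENSRNOG00000013963.

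**Figure D4:**
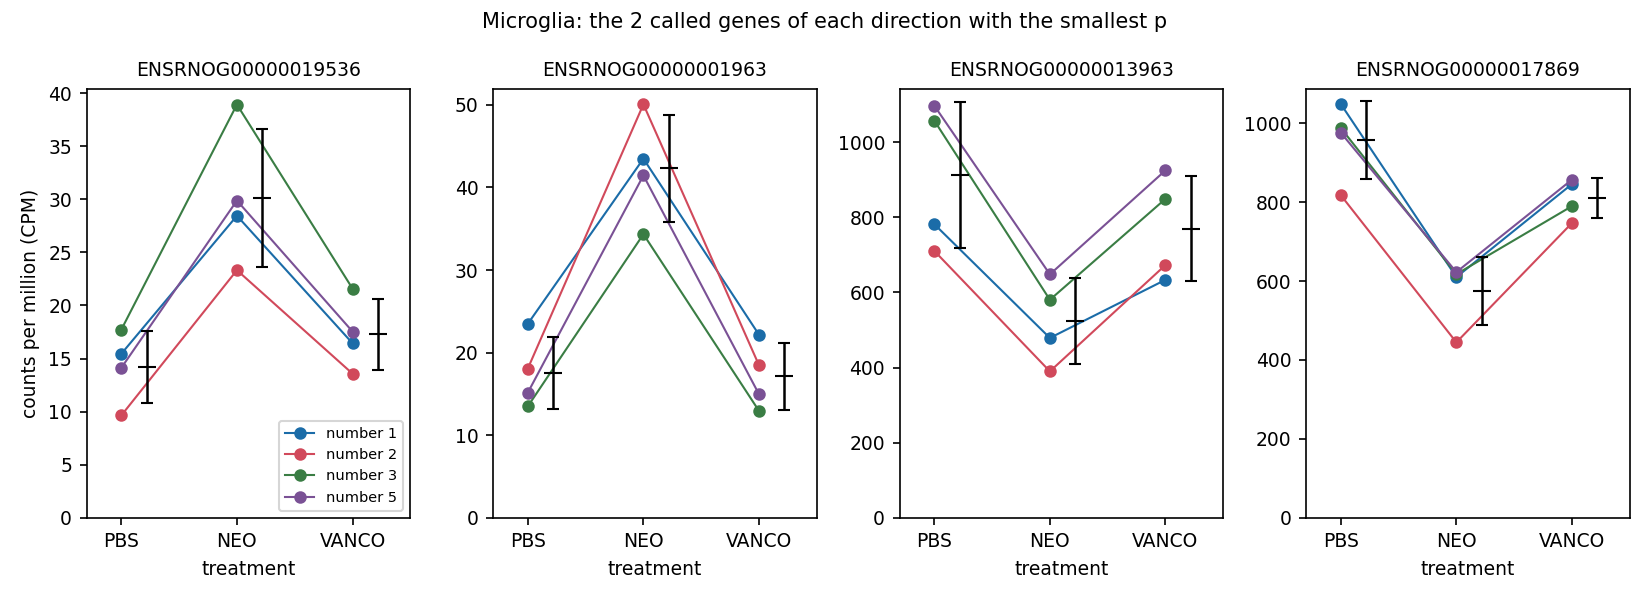
CPM (y axis, from 0) of the 4 printed genes in the 12 microglia libraries by treatment (x axis), with a line joining libraries of the same number and black marks for the mean and SD of 4 libraries. For ENSRNOG00000019536 and ENSRNOG00000001963 the NEO points lie above all PBS points, and for the other 2 genes below them.

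Without the libraries of number 2 more genes were called and the counts in either direction came closer. The paired edgeR model of numbers 1, 3 and 5 called 211 of 12633 genes (1.67%), 115 higher (0.910%) and 96 lower (0.760%). Of the 67 raised genes 58 were called again and of the 27 lowered 25 were, and of the 94, those that could be tested all kept their direction. The libraries that remained had also entered the first fit. The genes called without number 2 changed less, with a median log2 fold change of 0.55 for the raised and -0.43 for the lowered. The common biological coefficient of variation fell from 13.7% to 7.86%. With the same libraries DESeq2 called 157 genes higher and 130 lower, and limma-voom 108 and 88. Leaving out NEO 2 alone gave 143 higher and 157 lower, and leaving out PBS 2 alone gave 32 and 17.

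The genes called in numbers 1, 3 and 5 were also read in pair 2. Of the 115 genes raised in numbers 1, 3 and 5, 95 (82.6%) were higher in NEO 2 than in PBS 2, against 45.3% of all genes tested there. Of the 96 lowered genes 90 (93.8%) were lower in NEO 2, against 54.4% of all genes. Their median log2 difference in pair 2 was 0.59 and -0.70. In vancomycin rats, 32 of the 96 lowered genes (33.3%) favoured microglia over cord by 8-fold or more. So did 36 of the 115 raised genes (31.3%), against 8.77% of the 12570 genes tested with all numbers. A smaller ratio in favour of microglia was found for 41 lowered (42.7%) and 51 raised genes (44.3%), against 40.9% of those 12570. These shares were not matched for level. NEO 2 held more cord RNA than PBS 2. A fall in pair 2 of genes that favour microglia cannot be told apart from that difference. The other numbers gave fewer genes to follow. Of the genes called without number 1, 19 of 19 raised and 1 of 1 lowered changed the same way in pair 1, where 52.9% of all genes were higher. Of those called without number 5, 15 of 15 raised and 3 of 4 lowered did so in pair 5, where 48.2% were higher.

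The count of called genes leaned on single libraries. It was 44, 31 and 53 without NEO 1, 3 and 5, and 33, 49, 26 and 47 without PBS 1, 2, 3 and 5. Leaving out all libraries of number 1, 2, 3 or 5 gave 20, 211, 0 and 19. Without number 3, 1147 genes had an unadjusted p under 0.05 in edgeR but none passed the adjustment. Of the 94 called genes, 0 had the opposite direction in any of these fits. The fits reuse libraries that gave the calls, so a kept direction adds little evidence. Pooling mattered as well: with the vancomycin libraries left out of the model, 15 genes were called higher and 1 lower, all among the 94. With both vancomycin and number 2 left out, 121 were higher and 73 lower, and these held 62 of the 67 and 24 of the 27.

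**Figure D5:**
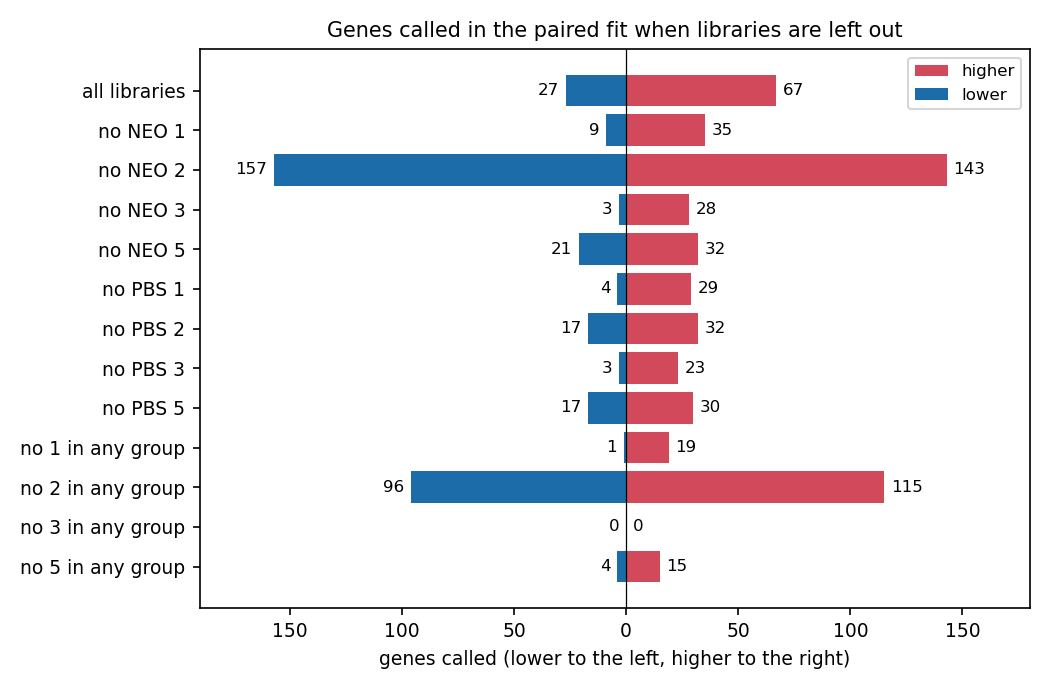
Genes called in the paired edgeR model with all libraries and with single libraries, or all libraries of a number, left out. Bars to the right count genes higher after neomycin and bars to the left genes lower; the counts stand at the bar ends, from 0 without number 3 to 143 higher and 157 lower without NEO 2.

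Raised and lowered genes were also placed by how strongly they favour microglia over total cord. The ratio was taken from vancomycin rats, so that no NEO or PBS library entered it. Of all genes tested 8.77% were at least 8-fold higher in microglia. Among the raised genes 22 of 67 (32.8%) were, and among the lowered 14 of 27 (51.9%). At the other end, 9.24% of all genes were at least 8-fold higher in cord, as were 2 of the 67 and 2 of the 27. Without number 2 the shares at least 8-fold higher in microglia were 36 of 115 (31.3%) and 32 of 96 (33.3%). Calls depended on level, with 0.255% of the 3143 lowest and 1.24% of the 3143 highest genes called, and these shares were not matched for level. Cord RNA in NEO 2 lowers the share of genes that favour microglia, and its part in the 51.9% was not tested. Of the 412 cord-enriched genes that could be tested none was called with all numbers, where 0.748% of all genes were. None was called without number 2 either, where 1.67% of all genes were. The median log2 difference of the cord-enriched genes was -1.11, 2.13, -0.28 and 0.02 in pairs 1, 2, 3 and 5. Their median log2 fold change was 0.45 with all numbers and -0.32 without number 2, so it changed sign. Unlike the ratio above, the cord-enriched set was defined with the PBS libraries.

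The neomycin levels of the 4 printed genes were set beside those after vancomycin, which share the model and, against PBS, the controls. The genes were chosen on these same neomycin values, so the tests against vancomycin give no separate evidence of a neomycin change. ENSRNOG00000019536 had 17.3 ± 3.32 CPM after vancomycin (SD, n = 4), between its NEO and PBS means. ENSRNOG00000001963 had 17.1 ± 4.06 CPM (SD, n = 4), close to its PBS mean. ENSRNOG00000013963 had 770 ± 139 CPM and ENSRNOG00000017869 810 ± 51.2 CPM (SD, n = 4), between their NEO and PBS means. Neomycin differed from vancomycin in the paired edgeR model for ENSRNOG00000019536 (log2 0.81, SE 0.08, adjusted p 0.00636), for ENSRNOG00000001963 (log2 1.34, SE 0.10, adjusted p 0.000852) and for ENSRNOG00000013963 (log2 -0.55, SE 0.08, adjusted p 0.0285). For ENSRNOG00000017869 the difference missed the threshold (log2 -0.49, SE 0.08, edgeR adjusted p 0.0551). Over all genes this contrast called 21 (0.167%), 20 higher after neomycin (0.159%) and 1 lower (0.00796%). For vancomycin against PBS edgeR called 0 genes. An unadjusted p below 0.05 was found for 365 of 12570 genes, a share below 0.05. DESeq2 called 5 higher and 33 lower.

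The genes were also read in total cord, from other libraries of the same treatments. No label says whether the same rats gave the sorted cells, and total cord itself contains microglia. The cord values are therefore not a separate replication. ENSRNOG00000001963 rose there too, with 33.9, 33.2 and 35.0 CPM in NEO 1, 2 and 3 against 23.4, 20.8 and 24.0 CPM in PBS (log2 0.60, SE 0.07, paired edgeR adjusted p 3.55e-05). The other 3 genes were not called in cord. For ENSRNOG00000019536 the NEO mean was 7.93 ± 0.849 CPM and the PBS mean 7.09 ± 0.739 CPM (SD, n = 3). In the same order ENSRNOG00000013963 had 70.1 ± 12.5 and 76.2 ± 12.7 CPM, and ENSRNOG00000017869 16.2 ± 5.37 and 20.5 ± 0.460 CPM (SD, n = 3). Tested directly, the neomycin change in microglia was larger than that in cord for ENSRNOG00000019536 (difference in log2 fold change 0.89, SE 0.16, edgeR adjusted p 0.0348) and for ENSRNOG00000013963 (-0.71, SE 0.11, adjusted p 0.0193). For ENSRNOG00000001963 (0.67, SE 0.14, edgeR adjusted p 0.0591) and ENSRNOG00000017869 (-0.41, SE 0.19, adjusted p 0.550) the difference did not pass. The printed genes were chosen on the microglia values that this model reuses, so these differences may be overstated. Over all 15546 genes of that model 12 (0.0772%) had a higher and 18 (0.116%) a lower neomycin fold change in microglia than in cord. Of the 64 raised genes that could be tested in cord, 22 were also called higher there, where 0.518% of all genes tested in cord were. Of the 24 lowered genes that could be tested in cord, 1 was called lower, where 0.164% of all genes were, and their median log2 fold change in cord was -0.08.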

How the data were processed

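RNA-seq of 12 sorted microglia and 9 total cord libraries was deposited by the authors as 1 file of raw, whole-number counts per library. The submitters' processing notes name the rn6 build, featureCounts 1.5.0-p1, STAR 2.5.2a and bcl2fastq 2.20.0.422. Annotation release, strandedness and handling of multi-mapping reads: not given in the sources used here. Genes that overlap, lie antisense or have near copies are therefore uncertain. The tests ran in R 4.3.3 with edgeR 4.0.16 (filterByExpr, TMM factors, robust quasi-likelihood F test, Benjamini-Hochberg). The model held the treatment means of all 12 microglia libraries and the replicate number as a block; DESeq2 1.42.0 and limma 3.58.1 (voom) were alternatives, with other scalings, filters and libraries left out. The test was checked on simulated data. The paired model was chosen, unlike the unpaired default, because the comparison was defined by equal numbers. No label says what a number stands for. Deviations from group means had a correlation of 0.47 to 0.69 in the 4 NEO and PBS pairs of the same number. In the 12 of different numbers it was -0.53 to 0.34. Such deviations cancel out within a group, so part of this contrast is built in. No 2 libraries of a treatment agreed within sampling noise. The standard error is the log2 fold change divided by the square root of the F statistic. CPM are counts scaled to the library total, without TMM factors, and differences within pairs are log2 CPM with TMM factors and a prior count of 2. Printed IDs are the 2 higher and 2 lower called genes with the smallest p, the rule set for the case that no ID matched a symbol. The comparison, rules and lists were chosen with earlier results of these data known, and 21 gene lists could not be applied without symbols.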

Additional observations from a re-analysis of the deposited data

Results flagged for a closer look

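Each of 10 measures was examined in the NEO and in the PBS group of 4 microglia libraries, and 5 of these 20 combinations had 1 library whose gap to the other 3 exceeded Dixon's limit. Chance gives about 1 in 20, and the combinations reuse the same libraries. All 5 belong to number 2. The cord-enriched share was 2.66% in NEO 2 against 0.0425 to 0.113% in the others, and 0.337% in PBS 2 against 0.101 to 0.132%. The 10 most abundant genes held 15.8% of counts in NEO 2 against 10.3 to 10.6%, and 15.9% in PBS 2 against 9.55 to 10.2%. ENSRNOG00000017869 had 445 CPM in NEO 2 against 610 to 623 CPM.

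The neomycin effect differed between microglia and total cord in a direct test for 30 of 15546 genes (0.193%). The fold change in microglia was the higher one for 12 genes (0.0772%) and the lower one for 18 (0.116%). ENSRNOG00000019536 was one of them, with a difference in log2 fold change of 0.89, and ENSRNOG00000013963 another, with -0.71, both chosen on the same microglia values. The counts of 12 and 18 ranged from 2 to 106 and from 8 to 105 when libraries were left out. Without the replicate block they were 0 and 0.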

How the results depend on the processing

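Without the replicate block the neomycin and PBS counts in microglia were 4 genes higher and 1 lower, and 5 and 4 with number 2 left out as well. With the block DESeq2 gave 168 and 146, the 8 compared libraries alone 15 and 1, and the cord-enriched share as a covariate 325 and 333; no filter on low counts gave 84 and 54. Chosen after seeing the data and with number 2 left out, DESeq2 gave 157 and 130, limma-voom 108 and 88, and the compared libraries alone 121 and 73. RLE and upper quartile factors, limma-voom and a filter of 1 CPM in 4 libraries stayed within 1.5 times of 67 and 27. Leaving out single libraries gave 23 to 143 higher and 3 to 157 lower, and leaving out all libraries of a number 0 without number 3 (1147 at an unadjusted p under 0.05), 15 without 5, 19 without 1 and 115 without 2 for higher, and 0 to 96 for lower. The cause of these shifts was not tested. The 4 printed genes kept their direction in all 25 alternatives, which reuse libraries that gave their calls. ENSRNOG00000019536, ENSRNOG00000001963 and ENSRNOG00000013963 lost their call in 3 of them (both unpaired models and without number 3), with an adjusted p of up to 0.0780, 0.311 and 0.273. ENSRNOG00000017869 lost it in 4 (without number 1, 3 or 5, and in the 8 libraries alone), with an adjusted p of up to 0.0798.

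Neomycin against vancomycin gave 20 higher and 1 lower, and 0 and 0 without the block (269 of 12570 genes at an unadjusted p under 0.05). DESeq2 gave 59 and 25 for it. Leaving out libraries gave 1 to 54 and 0 to 21 (44 and 15 without number 2). Vancomycin against PBS gave 5 higher and 33 lower with DESeq2, and 0 and 0 to 7 in edgeR with libraries left out. Neomycin against PBS in cord gave 76 and 24, and 0 and 0 without the block (400 of 14677 genes at an unadjusted p under 0.05). DESeq2 gave 54 and 3 in cord. Leaving out single cord libraries gave 47 to 78 and 8 to 28, and leaving out number 2 gave 204 and 194. The difference between microglia and cord gave 0 and 0 without the block (438 of 15546 genes at an unadjusted p under 0.05). DESeq2 gave 84 and 88 for this difference, and leaving out libraries gave 2 to 106 and 8 to 105. The unadjusted counts in this paragraph are all shares below 0.05. The alternatives for gene lists were not run, since no list could be applied.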

Other observations

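A small block of genes was high in PBS 1, 2 and 3 and low in PBS 5 and in the antibiotic libraries of numbers 1, 3 and 5. It was noticed among the strongest falls and then defined as the genes whose lowest CPM in PBS 1, 2 and 3 was at least 1 and at least 8 times the highest CPM in the other microglia libraries of numbers 1, 3 and 5. This gave 30 genes. The definition left out the antibiotic libraries of number 2, and the summed level of the 30 genes was 233 CPM in NEO 2 and 50.8 CPM in VANCO 2, against 299 to 509 CPM in PBS 1, 2 and 3. The 30 genes kept close to fixed proportions: PBS 2 had a median of 1.14 times the level of PBS 1 (quartiles 0.995 and 1.29), and PBS 3 0.652 times (0.607 and 0.704). All 30 were higher in total cord of PBS rats than in PBS 1, by a median of 7.46-fold. Of the 30, 1 was among the cord-enriched genes, whose share was 0.101% in PBS 1 against 0.0425% in NEO 1 and 0.0460% in VANCO 1, and 0.132% in PBS 3 against 0.113% in NEO 3 and 0.0782% in VANCO 3. In total cord the summed level of the 30 was 2177 to 2878 CPM in number 3 of the 3 treatments and 6008 to 8106 CPM in numbers 1 and 2. The definition itself makes the fold change of neomycin over PBS low in these genes. For the 27 that were tested in microglia its median was -2.96 on the log2 scale. In the paired edgeR model 1 of the 27 was called lower, where 0.215% of all genes were. Without number 2 it was 0, where 0.760% of all genes were. What these genes are was not analysed here, and the source of their counts was not tested.

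Genes at least 64-fold higher in microglia than in cord of PBS rats, 69 in all, followed the replicate number. They held 4.99, 0.827, 2.55 and 1.74% of counts in PBS 1, 2, 3 and 5 and 4.31, 0.488, 2.74 and 1.34% in NEO. Vancomycin libraries had 4.47, 0.716, 3.21 and 1.53%, the same order of numbers.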
